A study of Mus musculus with 16 samples.

Results

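The 44 genes described here carry cells through DNA replication and division. They were taken by symbol from the 55357 genes of the count table of a mouse liver RNA-seq study and grouped by role: 6 genes of G1/S control, 11 of DNA replication and nucleotide supply, 13 mitotic kinases, cyclins and checkpoint genes, and 14 genes of the spindle, chromosomes and cytokinesis. All 44 were found. The study compared livers of 2 mutants with a changed mouse telomerase RNA gene (Terc, written mTERC in the labels) with livers of wild-type mice. AUG livers have the genotype mTERC CUG/AUG, and AUG_WT livers are their wild type. Whether CUG/AUG means a changed codon or 2 alleles is not explained. In del7 livers mTERC lacks 7 nucleotides, positions 29 to 35, and del7_WT livers are the wild type of that line. Each group has 4 libraries, and none was treated. Age, sex, strain and the way the mutants were made are not stated in the labels. Nothing in the labels says that each replicate is its own animal. The p-values therefore reflect only the variation among these libraries, part of which may be technical.

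Most hepatocytes of an adult liver rest outside the cell cycle and return to it after injury or loss of tissue. Entry into S phase begins when D cyclins and then E cyclins, with their kinases, release the E2F factors, which switch on genes for the replication helicase and for nucleotide synthesis. Mitotic genes follow later. Many of them are held off in resting cells by the DREAM complex, which acts through a promoter element called the CHR (cell cycle genes homology region), often near CCAAT boxes bound by NF-Y. Immune and blood cells that divide in the tissue express the same genes, and bulk RNA does not tell apart more cells of a dividing type and more RNA per cell.

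The promoters of these genes carried those elements more often than the average mouse promoter. RefSeq promoters of GRCm38.p6, from 250 bases before to 50 bases after the start, were found for 35 of the 44 genes, 39 promoters in all. The CHR spelling TTTGAA stood in 51.3% of them, against 17.9% of all 32851 promoters, on either strand. CCAAT stood in 82.1%, against 37.4%. An E2F spelling (TTTGGCGC, TTTCCCGC, TTTCGCGC or TTTGCCGC) stood in 17.9%, against 2.26%. CHR matches were found in 9 of 11 spindle genes and 7 of 10 mitotic kinase and checkpoint genes, but in 1 of 10 replication genes, where E2F spellings were found in 4. None of the 11 spindle genes had an E2F spelling. A match is a description of the letters only.

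These 4 promoters are shown for the contrast of elements between a mitotic cyclin, the mitotic kinase, a helicase gene and a nucleotide kinase gene. Capitals mark matches on either strand, and adjoining or overlapping matches form 1 run. Ccnb2 (cyclin B2), chr9:70421505-70421804, minus strand, has 3 CCAAT boxes and 2 CHR matches, one of them just after the start site. Cdk1, chr10:69352863-69353162, minus strand, is the 1 promoter of the 39 with all 3 elements, a combination found in 0.119% of all promoters. Mcm6, chr1:128359656-128359955, minus strand, has 3 E2F matches, the first pair overlapping, and no CHR. Tk1, chr11:117825965-117826264, minus strand, has none of the letters searched for.
Ccnb2: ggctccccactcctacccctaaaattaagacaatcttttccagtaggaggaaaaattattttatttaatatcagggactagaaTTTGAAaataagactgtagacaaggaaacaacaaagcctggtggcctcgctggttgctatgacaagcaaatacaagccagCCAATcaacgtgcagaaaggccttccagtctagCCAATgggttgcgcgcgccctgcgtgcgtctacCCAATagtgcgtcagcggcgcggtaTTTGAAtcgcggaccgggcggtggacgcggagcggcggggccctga
Cdk1: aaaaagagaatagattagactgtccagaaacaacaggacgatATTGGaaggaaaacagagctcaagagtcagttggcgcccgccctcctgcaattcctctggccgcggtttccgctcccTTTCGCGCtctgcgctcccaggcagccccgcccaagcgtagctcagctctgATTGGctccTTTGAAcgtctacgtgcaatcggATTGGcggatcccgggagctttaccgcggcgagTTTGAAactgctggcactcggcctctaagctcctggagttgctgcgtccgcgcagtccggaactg
Mcm6: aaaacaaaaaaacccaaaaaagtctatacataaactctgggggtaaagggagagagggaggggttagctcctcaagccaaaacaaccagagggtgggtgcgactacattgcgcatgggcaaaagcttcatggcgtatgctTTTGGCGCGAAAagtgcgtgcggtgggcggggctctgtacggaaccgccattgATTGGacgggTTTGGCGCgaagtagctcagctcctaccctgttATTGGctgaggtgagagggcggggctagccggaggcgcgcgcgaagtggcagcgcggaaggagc
Tk1: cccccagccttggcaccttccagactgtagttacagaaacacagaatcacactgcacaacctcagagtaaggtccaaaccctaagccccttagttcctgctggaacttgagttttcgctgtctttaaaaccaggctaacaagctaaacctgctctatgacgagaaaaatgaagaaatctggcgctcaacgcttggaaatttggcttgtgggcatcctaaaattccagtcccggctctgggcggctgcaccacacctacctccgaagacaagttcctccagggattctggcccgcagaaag

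Reads assigned to genes amounted to 7714058 to 14629022 per library. One library, AUG_WT replicate 1, differed from all others. The 44 genes took 0.160% of its counts and 0.0179% to 0.0329% in the others. Albumin took 4.37% of its counts in genes, against 6.58% to 11.5% in the others. Reads with no gene on the counted strand were 35.0% of all its reads, unassigned ones included, against 21.8% to 29.4%. Every comparison below is therefore given with and without that library.

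In 15 of the 16 libraries the mitotic genes were low, and in AUG_WT replicate 1 they were abundant. CPM (counts scaled with TMM factors to a library size of 1e6) summed over the 27 mitotic genes reached 681.7 in AUG_WT replicate 1, from 9717 reads. The sum was 26.7 to 41.9 in AUG livers, 22.3 to 39.2 in the other AUG_WT livers, 27.96 to 47.9 in del7 livers and 31.0 to 42.7 in del7_WT livers, from 280 to 593 reads. The 11 replication genes summed to 332.7 CPM in AUG_WT replicate 1 and to 81.0 to 108.7 CPM elsewhere. The 6 G1/S genes, dominated by Ccnd1, summed to 169.3 CPM in it and 62.7 to 202.2 CPM elsewhere. Without Ccnd1 the other 5 summed to 60.6 CPM in AUG_WT replicate 1 and 13.8 to 21.9 CPM elsewhere, with 4 of the 5 at their highest.

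**Figure D1:**
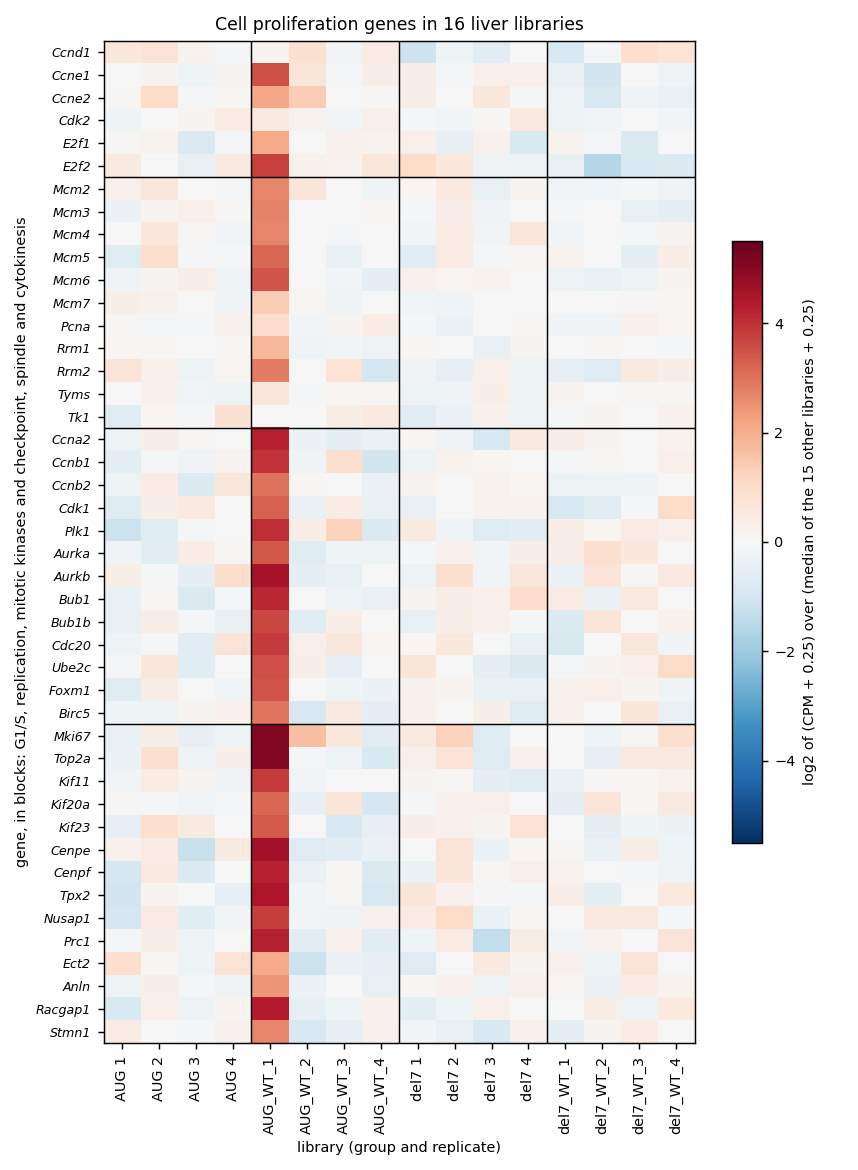
Level of each of the 44 genes (rows, in 4 role blocks) in each of the 16 libraries (columns, AUG, AUG_WT, del7, del7_WT), as log2 of (CPM + 0.25) over the same for the median of the other 15 libraries, that is, all but AUG_WT replicate 1. The AUG_WT replicate 1 column is red in nearly every row, and the other 15 columns are pale.

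**Figure D2:**
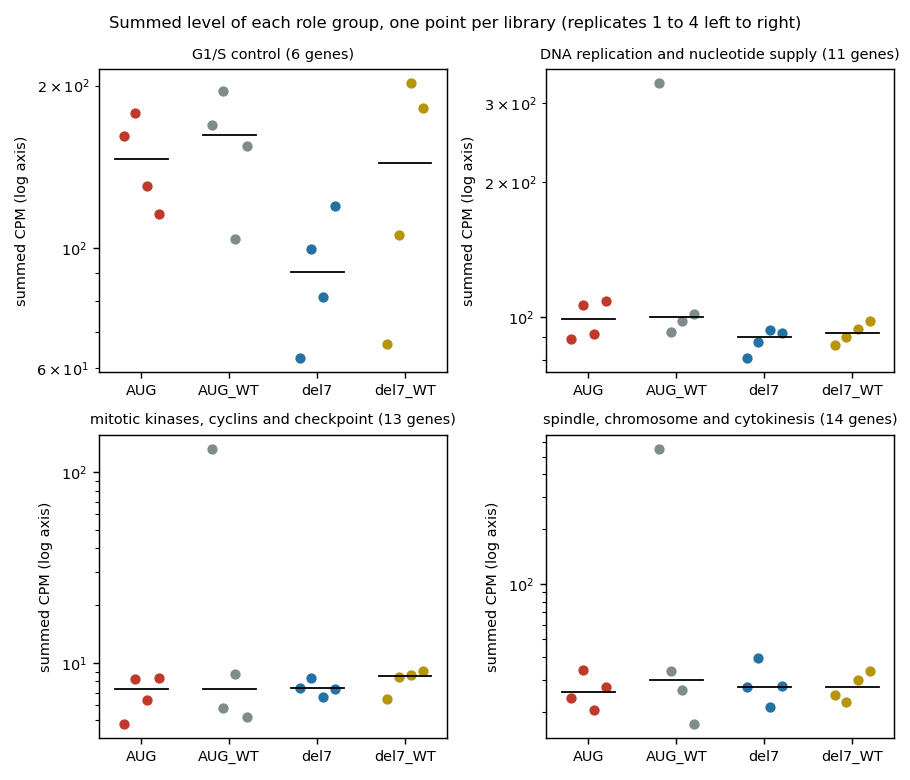
Summed CPM of each role group on a log axis, 1 point per library, with the group median as a line. AUG_WT replicate 1 lies far above all others in 3 panels (332.7 CPM for replication, 132.0 for mitotic kinases and 549.7 for spindle genes) and among the others for G1/S control.

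AUG_WT replicate 1 was the highest library for 41 of the 44 genes, the exceptions being Ccnd1, Cdk2 and Tk1. Its level over the median of the other 15 libraries had a median of 12.2 over the 44 genes, exceeded 2 in 39 of them and 8 in 29. Over all 14421 genes that passed the count filter the median ratio was 1.01, 3.18% exceeded 8 and it was the highest library for 28.9%. The ratio differed by role, with a median of 21.3 in spindle genes and 18.6 in mitotic kinase and checkpoint genes, 6.61 in replication genes and 5.02 in G1/S genes. Among the 18 genes with a CHR match the ratio ranged from 4.44 in Ect2 to 37.1 in Top2a (median 16.1). In the 5 with an E2F spelling and no CHR it ranged from 1.44 in Cdk2 to 11.5 in Mcm6 (median 6.87). In the 6 with CCAAT alone its median was 18.8, and in the 6 with none of these elements 7.80.

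Levels were compared between genes per kilobase of exon. In the other 15 libraries the highest median levels were 20.8 CPM per kilobase for Ccnd1, 6.65 for Pcna, 4.15 for Tk1, 2.78 for Mcm7 and 2.06 for Cdk2. All 27 mitotic genes lay between 0.0435 and 0.731 CPM per kilobase. In AUG_WT replicate 1, Mki67 reached 22.6 CPM per kilobase, beside Ccnd1 at 23.1, Pcna at 13.2, Mcm6 at 12.3 and Top2a at 11.5.

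**Figure D3:**
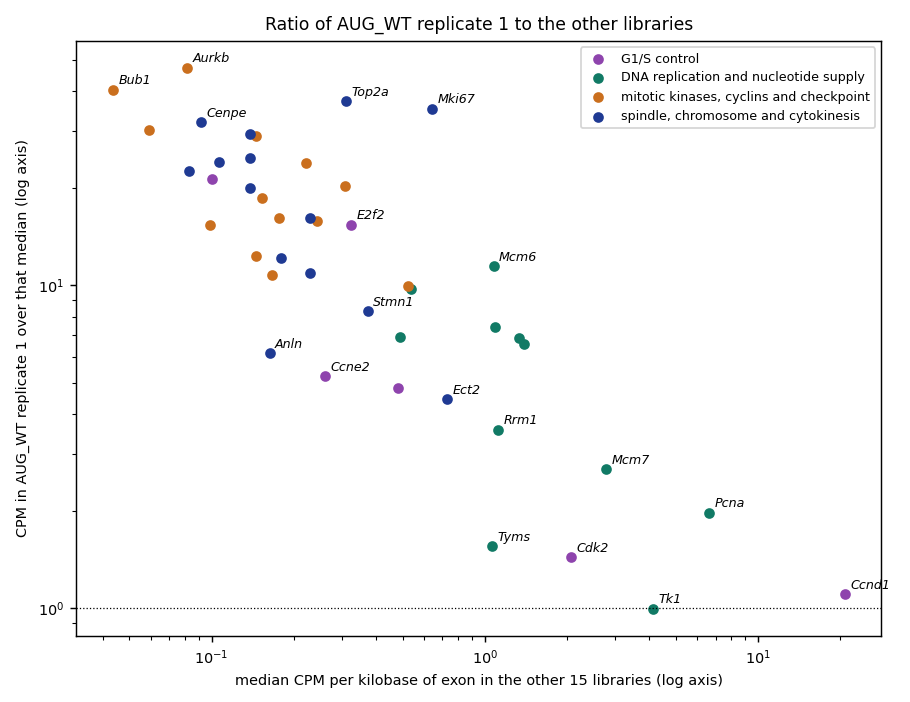
Level in AUG_WT replicate 1 over the median of the other 15 libraries (vertical, log axis) against that median in CPM per kilobase of exon (horizontal, log axis), 1 point per gene, coloured by role. Ratios reach 47.2 for Aurkb and 35.2 for Mki67, and Tk1 (1.00) and Ccnd1 (1.11) lie at the dotted line of equal level.

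Other cell types' markers moved with this library. All 8 B and plasma cell markers were highest in it, with a summed level of 827.7 CPM against 34.4 to 333.8 CPM in the other 15 libraries. Summed T and NK cell markers reached 93.2 CPM against 3.13 to 15.7 CPM, with 7 of 8 at their highest. Summed germinal centre markers reached 129.1 CPM against 6.88 to 38.5 CPM, with 4 of 6 at their highest. Neutrophil markers summed to 34.5 CPM against 2.60 to 15.3 CPM, with 5 of 6 at their highest. Kupffer cell markers summed to 697.9 CPM against 199.9 to 677.0 CPM, and cholangiocyte markers to 130.6 CPM against 20.2 to 76.2 CPM, but only 3 of 7 and 2 of 6 were at their highest. Hepatocyte markers, at 55858 CPM against 107592 to 177772 CPM, and endothelial markers, at 251.8 CPM against 345.3 to 444.2 CPM, were at their lowest. Erythroid markers (166.3 CPM against 132.3 to 2634 CPM) and stellate and fibroblast markers (637.8 CPM against 465.6 to 638.0 CPM) lay within the range of the others. The part of these cell types in the level of the proliferation genes was not tested.

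Among the G1/S genes, Ccnd1, the cyclin D1 that hepatocytes raise on leaving rest, was the highest of the 44 per kilobase. It had 145.8, 159.3, 113.2 and 93.8 CPM in AUG livers, against 108.7, 174.4, 87.6 and 133.4 CPM in AUG_WT livers. The del7 livers had 44.02, 83.3, 62.6 and 98.0 CPM, against 52.4, 92.3, 186.5 and 166.7 CPM in del7_WT livers. All groups overlap, and del7_WT alone spans a range of more than 3-fold. Ccne2 (cyclin E2) had 0.978, 2.104, 0.856 and 0.958 CPM in AUG livers, against 4.77, 2.84, 0.909 and 0.958 CPM in AUG_WT livers. It had 1.19, 0.888, 1.54 and 0.871 CPM in del7 livers, against 0.701, 0.372, 0.779 and 0.626 CPM in del7_WT livers. The del7 and del7_WT values do not overlap, while AUG replicate 2 and AUG_WT replicates 1 and 2 are high. The nearest del7 and del7_WT values rest on 7 reads in del7 replicate 4 and 6 reads in del7_WT replicate 3.

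E2f1, an activator of S-phase genes, had 1.60, 1.79, 0.761 and 1.44 CPM in AUG livers, against 7.30, 1.52, 1.82 and 1.76 CPM in AUG_WT livers. E2f2, an activator of the same family that is also known in mice for a role in maturing red cells, had 2.31, 1.58, 1.14 and 2.31 CPM in AUG livers, against 24.3, 1.90, 1.82 and 2.55 CPM in AUG_WT livers. It had 3.40, 2.50, 1.34 and 1.24 CPM in del7 livers, against 1.12, 0.372, 0.779 and 0.805 CPM in del7_WT livers. Both are high in AUG_WT replicate 1 alone, and for E2f2 every del7 liver lies above every del7_WT liver. Cdk2, the partner of cyclin E, stayed within 10.5 to 18.7 CPM in all 16 libraries. Ccne1 (cyclin E1) was below the count filter, with 5.68 CPM in AUG_WT replicate 1 and at most 0.569 CPM elsewhere.

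The replication genes were measured in every library. Mcm2, a subunit of the MCM helicase, had 4.18, 5.37, 3.52 and 3.19 CPM in AUG livers, against 23.6, 5.59, 3.41 and 2.87 CPM in AUG_WT livers. Mcm6 of the same ring had 4.36, 5.68, 6.47 and 4.23 CPM in AUG livers, against 57.6, 5.02, 4.55 and 3.51 CPM in AUG_WT livers. Mcm3 had 3.91, 5.68, 6.18 and 5.35 CPM in AUG livers, against 34.5, 5.02, 5.11 and 5.51 CPM in AUG_WT livers. For these genes AUG_WT replicate 1 is far above and its 3 fellow libraries lie within or beside the AUG range. The subunits Mcm4 and Mcm5 were 6.61 and 9.75 times the median of the others in that library, and Mcm7 had 33.3 CPM in it against 10.5 to 15.3 CPM elsewhere. Pcna, the sliding clamp, had 16.7, 15.3, 14.7 and 18.9 CPM in AUG livers, against 31.6, 14.5, 17.5 and 21.0 CPM in AUG_WT livers. Pcna also serves DNA repair, and it had 12.8 CPM or more in every library.

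The genes of nucleotide supply differed among themselves. In AUG_WT replicate 1 the ribonucleotide reductase subunits Rrm1 and Rrm2 were 3.58 and 7.45 times the median of the others, thymidylate synthase (Tyms) 1.56 times and thymidine kinase (Tk1) 1.00 times. Tk1 had 13.7, 23.6, 20.4 and 38.1 CPM in AUG livers, against 21.5, 21.5, 27.2 and 31.4 CPM in AUG_WT livers. It had 13.9, 17.4, 25.1 and 17.5 CPM in del7 livers, against 19.8, 24.3, 21.5 and 25.2 CPM in del7_WT livers. Tyms had 5.29, 5.65, 8.07 and 5.23 CPM in del7 livers, against 7.22, 6.32, 6.75 and 6.80 CPM in del7_WT livers. In both genes the groups overlap, and del7 replicate 3 is the highest of its group.

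Of the 13 mitotic kinases, cyclins and checkpoint genes, 8 were below the count filter, and all 13 were over 8 times the median of the others in AUG_WT replicate 1. Cdk1, the kinase that drives entry into mitosis, had 0.356, 0.947, 1.14 and 0.718 CPM in AUG livers, against 8.84, 0.474, 1.02 and 0.479 CPM in AUG_WT livers. Its partner Ccnb1 (cyclin B1) had 0.0889, 0.210, 0.190 and 0.319 CPM in AUG livers, against 7.51, 0.190, 0.682 and 0 CPM in AUG_WT livers. Outside AUG_WT replicate 1 both are at a handful of reads, and the groups overlap. Cdc20, which activates the anaphase-promoting complex, had 0.445, 0.526, 0.285 and 1.12 CPM in AUG livers, against 11.7, 0.758, 1.02 and 0.639 CPM in AUG_WT livers. Bub1b, a spindle checkpoint kinase, had 0.711, 1.37, 0.951 and 0.718 CPM in AUG livers, against 16.4, 0.569, 1.36 and 1.04 CPM in AUG_WT livers. Both show the same single high library.

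Cyclins A2 and B2 gave more reads than cyclin B1. Ccna2, which acts in S phase and early mitosis, had 0.711, 1.26, 0.951 and 0.878 CPM in AUG livers, against 21.7, 0.664, 0.568 and 0.639 CPM in AUG_WT livers. It had 0.948, 0.726, 0.384 and 1.37 CPM in del7 livers, against 1.26, 1.02, 0.909 and 1.07 CPM in del7_WT livers. Without AUG_WT replicate 1 every AUG value lies above every AUG_WT value, and the del7 and del7_WT values overlap. The nearest AUG and AUG_WT values rest on 8 reads in AUG replicate 1 and 7 reads in AUG_WT replicate 2. Ccnb2 had 0.948, 0.807, 0.961 and 0.871 CPM in del7 livers, against 0.630, 0.650, 0.649 and 0.805 CPM in del7_WT livers. The nearest values of those groups are 0.807 and 0.805 CPM.

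The 11 genes below the count filter (Ccne1, Ccnb1, Plk1, Aurka, Aurkb, Bub1, Ube2c, Foxm1, Birc5, Tpx2 and Nusap1) had 81 to 273 reads each in AUG_WT replicate 1 and 0 to 17 reads each in every other library. They include Plk1, Aurka and Aurkb, kinases of the mitotic spindle, and Foxm1, an activator of mitotic genes. Aurkb showed the highest ratio of all 44 genes, 11.3 CPM in AUG_WT replicate 1 against a median of 0.239 CPM. They were not tested between groups in the main fit, and no member was called when the filter was left out.

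Among the genes of spindle, chromosomes and cytokinesis, Mki67, the coat protein of mitotic chromosomes used as a proliferation marker, had 4.98, 8.21, 4.66 and 5.27 CPM in AUG livers, against 227.7, 20.8, 9.89 and 4.15 CPM in AUG_WT livers. It had 9.48, 15.9, 4.04 and 6.47 CPM in del7 livers, against 6.30, 5.39, 6.88 and 12.3 CPM in del7_WT livers. Besides AUG_WT replicate 1, AUG_WT replicate 2 and del7 replicate 2 are high, and the groups overlap. Top2a, the topoisomerase that untangles chromosomes, had 2.22, 5.37, 2.28 and 3.59 CPM in AUG livers, against 104.0, 2.56, 2.27 and 1.44 CPM in AUG_WT livers. It had 3.48, 4.92, 1.63 and 3.36 CPM in del7 livers, against 2.80, 1.95, 4.02 and 4.02 CPM in del7_WT livers. AUG_WT replicate 2, second for Mki67, is not high for Top2a. The spindle motor Kif11 was 16.1 times the median of the others in AUG_WT replicate 1, the centromere proteins Cenpe and Cenpf 32.0 and 22.5 times, and the microtubule proteins Tpx2, Nusap1 and Prc1 29.5, 20.03 and 24.1 times.

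Genes of cytokinesis gave a wide range of ratios, 6.17 for the scaffold Anln and 10.9 for the kinesin Kif20a. Racgap1, part of the centralspindlin complex, had 0.445, 1.26, 0.761 and 1.12 CPM in AUG livers, against 24.3, 0.664, 0.796 and 1.20 CPM in AUG_WT livers. Kif23, its motor partner, had 0.978, 2.84, 2.09 and 1.44 CPM in AUG livers, against 17.3, 1.42, 0.682 and 0.958 CPM in AUG_WT livers. Kif23 had 1.90, 1.70, 1.63 and 2.61 CPM in del7 livers, against 1.40, 0.929, 1.17 and 1.07 CPM in del7_WT livers. Every del7 value of Kif23 is above every del7_WT value.

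Ect2, which activates RhoA at the cleavage furrow, had 7.65, 4.31, 3.33 and 7.10 CPM in AUG livers, against 17.5, 1.61, 3.07 and 2.79 CPM in AUG_WT livers. Without AUG_WT replicate 1 the 2 groups do not overlap. At 4.44 times the median, Ect2 had the lowest ratio of the 27 mitotic genes and, at 0.731 CPM per kilobase, the highest level among them in the other libraries. Stmn1, the microtubule destabiliser stathmin, had 1.07, 0.736, 0.666 and 0.878 CPM in AUG livers, against 5.96, 0.284, 0.455 and 0.878 CPM in AUG_WT livers. It had 0.632, 0.484, 0.288 and 0.871 CPM in del7 livers, against 0.420, 0.836, 1.04 and 0.715 CPM in del7_WT livers, with overlap in both comparisons.

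In the comparison of AUG with AUG_WT livers over all libraries, 32 of the 33 tested proliferation genes had a lower mean in AUG and 1 a higher one, and their median log2 fold change was -1.49. The median over all 14421 tested genes was -0.04, and 43.8% were above 0. No proliferation gene passed an adjusted p of 0.05 by edgeR's quasi-likelihood test with Benjamini-Hochberg adjustment (smallest 0.561), where 0.0277% of all tested genes did. At an unadjusted p of 0.05, 20 were lower and 0 higher, against 7.37% and 1.44% of all tested genes. For 0 of the 33 did the AUG and AUG_WT values separate, against 0.853% of all tested genes that were higher and 1.20% that were lower.

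The 2 genes of each role with the smallest p were Mki67 and Racgap1, Cdc20 and Bub1b, E2f2 and E2f1, and Mcm6 and Mcm3. Mki67 had a log2 fold change of -3.51 (SE 0.95) and Racgap1 of -2.92 (SE 0.95). Cdc20 had -2.56 (SE 0.85), Bub1b -2.39 (SE 0.84), E2f2 -2.06 (SE 0.73) and Mcm6 -1.78 (SE 0.69). Mcm3 had -1.26 (SE 0.52) and E2f1 -1.16 (SE 0.50). The adjusted p by edgeR was 0.561 for each.

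Without AUG_WT replicate 1 the median had the opposite sign. Of 34 tested genes, 22 were higher and 12 lower in AUG. Their median log2 fold change was 0.15, and 52.5% of all 14582 tested genes were above 0. For mitotic genes the median was 0.27 and 14 of 18 were higher, against -2.39 with 17 of 17 lower over all libraries. The 11 replication genes had a median of 0.15 with 8 higher, against -1.12 with 11 lower. The 5 tested G1/S genes had lower means in AUG both in 4 of 5 with that library and in 5 of 5 without it (median -0.98 and -0.17). None passed the adjusted threshold by edgeR, against 0.0274% of all tested genes. At an unadjusted p of 0.05, 3 were higher and 0 lower, against 2.58% and 3.34% of all tested genes. The values of Rrm1, Ccna2 and Ect2 did not overlap, all higher in AUG. Of all tested genes 2.33% separated upwards and 3.15% downwards.

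Ect2 then had a log2 fold change of 1.19 (SE 0.37, adjusted p 0.736 by edgeR), Kif23 of 0.83 (SE 0.36, adjusted p 0.821) and Rrm1 of 0.30 (SE 0.12, adjusted p 0.795). Rrm1 had 13.2, 13.3, 12.6 and 13.1 CPM in AUG livers, against 10.9, 11.1 and 10.1 CPM in AUG_WT replicates 2 to 4. Mki67 remained the lowest, at -0.98 (SE 0.49, adjusted p 0.834), while Top2a stood at 0.71. Marker levels also differed between these libraries. Summed erythroid markers were 144.0 to 491.6 CPM in AUG livers and 559.3 to 2634 CPM in AUG_WT replicates 2 to 4. Summed Kupffer cell markers were 296.4 to 677.0 CPM in AUG livers and 306.4 to 362.6 CPM in those AUG_WT livers, and germinal centre markers 9.25 to 38.5 CPM in AUG livers and 8.72 to 15.002 CPM in AUG_WT. B and plasma cell markers were 38.0 to 75.3 CPM in AUG livers and 59.6 to 333.8 CPM in those AUG_WT livers, highest in AUG_WT replicate 2, which also has the most Mki67 of the 3. T and NK cell markers were 4.09 to 15.7 CPM in AUG livers and 5.34 to 6.92 CPM in AUG_WT. Their part in these values was not tested.

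**Figure D4:**
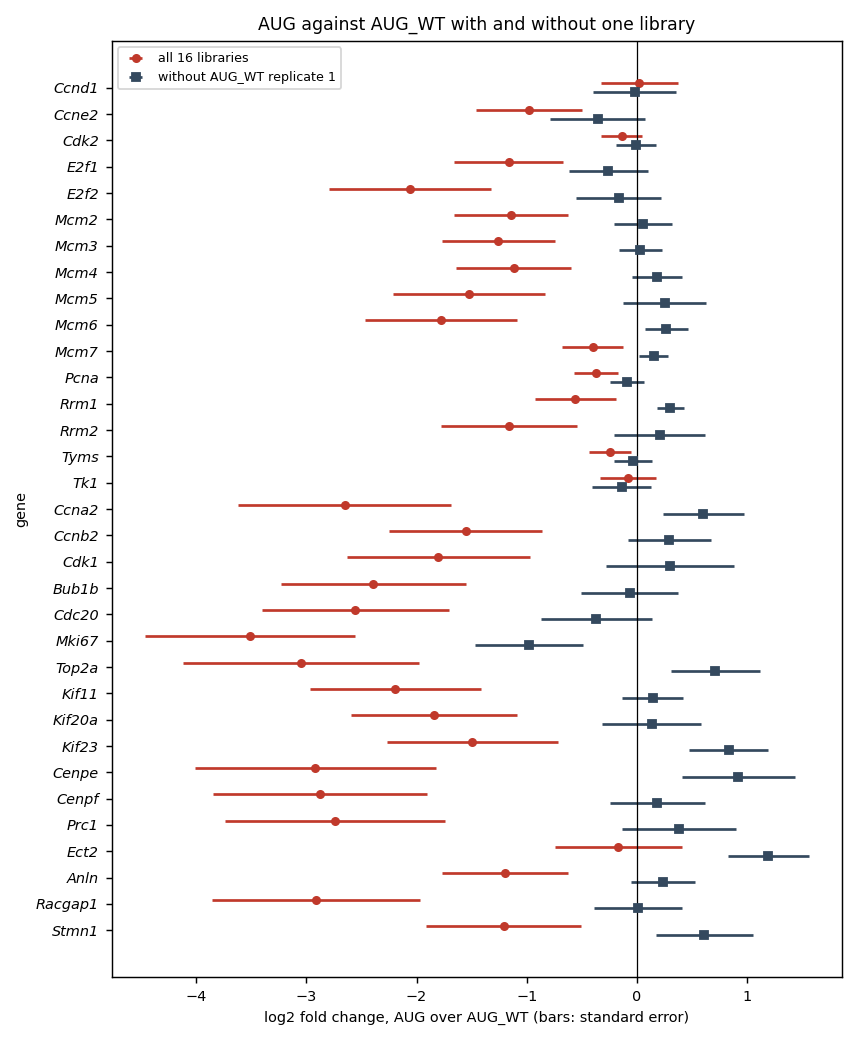
Log2 fold change of AUG over AUG_WT for the 33 tested genes, with standard errors, over all 16 libraries (red circles) and without AUG_WT replicate 1 (dark squares). Red circles lie left of 0 for all genes but Ccnd1, and most dark squares lie near or right of 0, with Ect2 at 1.19 and Mki67 at -0.98 as the extremes.

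In del7 livers the genes lay on both sides of del7_WT in similar numbers. Of the 33 tested, 15 were higher and 18 lower in del7 than in del7_WT, with a median log2 fold change of -0.02, and 50.1% of all tested genes were above 0. None passed the adjusted threshold by edgeR, against 0% of all tested genes. At an unadjusted p of 0.05, 1 was lower and 0 higher, against 0.742% and 1.18%. The values of Ccne2, E2f2, Ccnb2 and Kif23 did not overlap, all higher in del7. Of all tested genes 2.41% separated upwards and 1.61% downwards.

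Ccnd1 had a log2 fold change of -0.79 (SE 0.35, unadjusted p 0.0405 by edgeR, adjusted p 1). E2f2 had 1.45 (SE 0.80), Kif23 0.76 (SE 0.82) and Ccnb2 0.39 (SE 0.76). Tk1 had -0.30 (SE 0.25), Tyms -0.16 (SE 0.19), Stmn1 -0.38 (SE 0.80) and Ccna2 -0.35 (SE 1.02). Adjusted p-values by edgeR were 1 for all of these. The standard errors carry the spread of all 4 groups, AUG_WT replicate 1 included. Without that library 15 of 34 genes were higher and 19 lower in del7, with a median of -0.03, and 47.7% of all tested genes were above 0. None passed the adjusted threshold, against 0% of all tested genes. At an unadjusted p of 0.05, 2 were higher and 1 lower, against 3.22% and 2.12% of all tested genes. Again 4 genes separated, all higher in del7, against 2.40% of all tested genes that separated upwards and 1.60% downwards. E2f2 then had 1.45 (SE 0.39, unadjusted p 0.00207, adjusted p 0.754 by edgeR), Kif23 0.74 (SE 0.32, adjusted p 0.886) and Ccnd1 -0.80 (SE 0.35, adjusted p 0.886). Summed erythroid markers were 626.9, 908.3, 212.5 and 153.2 CPM in del7 livers, against 383.2, 168.6, 132.3 and 313.1 CPM in del7_WT livers. The 2 del7 livers with the most E2f2 are also the 2 with the most erythroid marker RNA. The 2 levels do not go together throughout. Replicates 3 and 4 of del7 have more E2f2 than every del7_WT liver but less erythroid marker RNA than del7_WT replicates 1 and 4. AUG_WT replicate 4, with the most erythroid marker RNA of all libraries (2634 CPM), had 2.55 CPM of E2f2. The part of erythroid cells in the E2f2 values was not tested. Summed markers of 3 other lists did not overlap between these groups. Kupffer cell markers were 332.2 to 537.9 CPM in del7 livers and 199.9 to 322.3 CPM in del7_WT livers. Neutrophil markers were 6.63 to 15.3 CPM in del7 livers and 2.60 to 5.28 CPM in del7_WT livers. Germinal centre markers were 18.9 to 29.1 CPM in del7 livers and 6.88 to 17.97 CPM in del7_WT livers. The other lymphoid lists overlapped. B and plasma cell markers were 36.2 to 155.3 CPM in del7 livers and 34.4 to 73.2 CPM in del7_WT livers. T and NK cell markers were 4.71 to 10.8 CPM in del7 livers and 3.13 to 7.57 CPM in del7_WT livers. A summed list does not show which of its genes moved. The part of these cell types in the values of Ccne2, Ccnb2 and Kif23 was not tested.

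**Figure D5:**
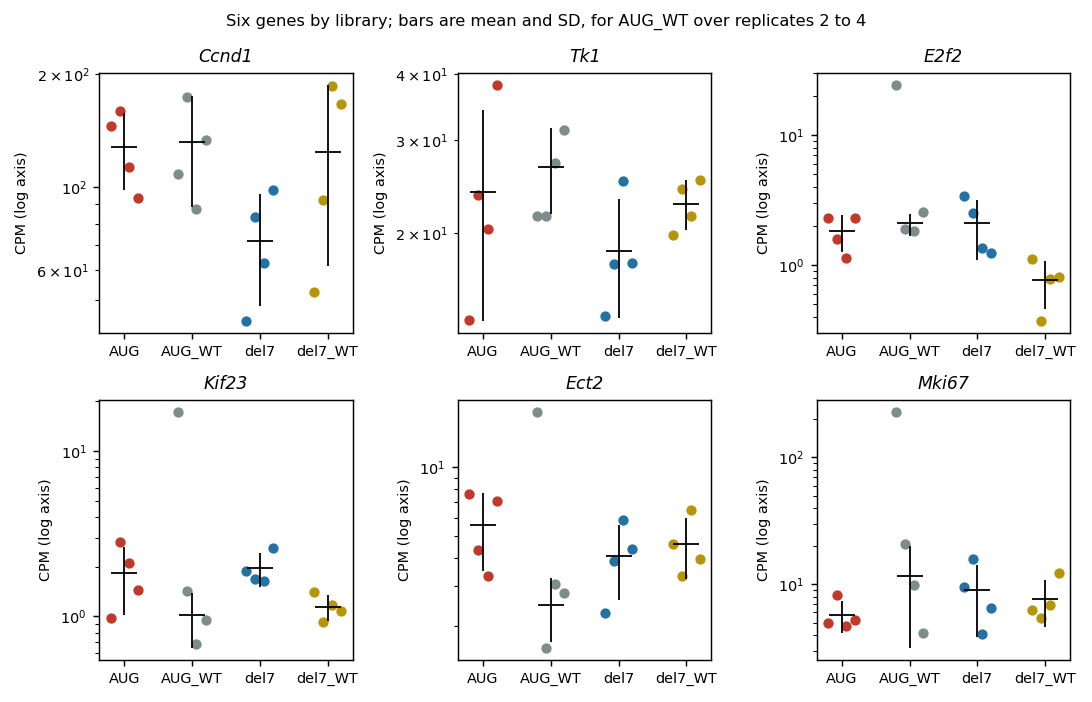
CPM of Ccnd1, Tk1, E2f2, Kif23, Ect2 and Mki67 by group on log axes, 1 point per library, replicates 1 to 4 left to right. Bars show mean and SD, for AUG_WT over replicates 2 to 4, and AUG_WT replicate 1 is the high grey point for E2f2 (24.3 CPM), Kif23 (17.3 CPM), Ect2 (17.5 CPM) and Mki67 (227.7 CPM).

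The difference between the AUG effect and the del7 effect was tested as an interaction. None of the 33 proliferation genes passed the adjusted threshold by edgeR (smallest 0.864), against 0.00693% of all tested genes, and the median difference in log2 fold change was -1.68. E2f2 had -3.51 (SE 1.08) and Mki67 -3.74 (SE 1.30). Without AUG_WT replicate 1 the median was 0.15, E2f2 had -1.61 (SE 0.55), Mki67 -1.20 and Ect2 1.37 (SE 0.49), again with none past the threshold, against 0.0137% of all tested genes.

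A wider list of the same pathway holds 107 genes of origin firing, replication forks, kinetochores, spindle motors, mitotic regulators, other G1 kinases and cell cycle inhibitors, none of them among the 44. None was called by edgeR in either mutant, against 0.0277% of all tested genes in AUG and 0% in del7. Of the 62 tested that are not inhibitors, 6 were higher and 56 lower in AUG than in AUG_WT (median log2 fold change -0.71). Without AUG_WT replicate 1 it was 45 higher and 18 lower of 63 (median 0.14). In del7, 34 were higher and 28 lower (median 0.04), and without that library 35 and 28 of 63 (median 0.02). The smallest p in AUG belonged to Cdc45 (a helicase cofactor), Cdc25b (a phosphatase that activates Cdk1) and Zwilch (a kinetochore protein), and in del7 to Spc25 (a kinetochore protein), Cdk6 (a G1 kinase) and Nek2 (a centrosome kinase). Zwilch had 0.445, 0.421, 0.666 and 0.559 CPM in AUG livers, against 6.03, 0.853, 0.682 and 1.04 CPM in AUG_WT livers. It was the 1 tested non-inhibitor whose AUG and AUG_WT values did not overlap, lower in AUG, against 1.20% of all tested genes. Among those tested without AUG_WT replicate 1, Zwilch still separated, lower in AUG, and Orc6, Prim2 and Chaf1b separated, higher in AUG, against 3.15% and 2.33% of all tested genes. The log2 fold changes were then -0.70 (SE 0.34) for Zwilch, 0.56 (SE 0.27) for Orc6, 0.48 (SE 0.21) for Prim2 and 0.73 (SE 0.36) for Chaf1b, each with an adjusted p of 0.834 by edgeR.

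AUG_WT replicate 1 was the highest library for 81 of the 91 non-inhibitors, with a median ratio of 6.72. All 20 genes of mitotic motors, spindle and condensin were highest in it, with a median ratio of 22.9. Uhrf1, a reader of hemimethylated DNA at the fork, reached 44.2 times the median of the others, the kinesin Kif14 59.5 times and the kinetochore scaffold Knl1 37.1 times. Genes of the same phases that were lower in it included Pttg1, the securin gene (0.72 times), Mcm10 (0.50 times) and, barely, Cks2 (0.97 times). Of the 16 inhibitors it was highest for 9, with a median ratio of 2.29.

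Over the 15 libraries other than AUG_WT replicate 1, the correlation of each tested gene's log2 CPM with the mean of the remaining tested genes ranged from -0.17 for E2f1 to 0.79 for Top2a, with a median of 0.27 and 6 of 33 above 0.5. The genes share each library's depth and cell makeup, and the libraries fall in 4 groups. Among genes outside the 44, the one with the profile most like their mean was Plk4, the kinase of centriole duplication (r = 0.81 over 15 libraries). The next were Nkiras2 (0.78), Cd47 (0.77), Gm10134 (0.77) and Slc25a4 (0.76), and the tenth was Car13 (0.75).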

How the data were processed

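RNA was sequenced from mouse liver in 16 libraries, 4 per group. Per the labels' protocols, 550 ng of total RNA from 10 mg of tissue was depleted of ribosomal RNA and made into directional libraries. Per the submitters' processing notes, cutadapt 2.10 and STAR 2.7.9a were used with GRCm39. The gene annotation and counting settings used for alignment are not given in the sources used here. Values are raw counts per gene, whole numbers that the authors deposited without scaling. All columns matched a sample by title, with 0 unmapped, and lines for unassigned reads stayed out. GENCODE M21 on GRCm38 supplied names for 52081 of 55357 genes, chromosomes and exon lengths, and no coordinates. Promoters and their coordinates are RefSeq's on GRCm38.p6.

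Tests used edgeR 4.0.16 under R 4.3.3. filterByExpr by group with a minimum count of 10 kept 14421 genes, and TMM scaled the libraries. The model had 1 mean per group and 12 residual degrees of freedom (glmQLFit), and its tests were two-sided (glmQLFTest). Adjusted p-values are Benjamini-Hochberg over all tested genes, with a threshold of 0.05. CPM are counts scaled to a TMM-adjusted library size of 1e6, and log2 CPM carry a prior count of 2. The pipeline was tested on simulated data that held no outlying library like AUG_WT replicate 1. The closest pair of libraries differed beyond sampling noise (chi-square 8.60 per gene), so all 16 were kept apart. Log2 fold changes of AUG had a median standard error of 0.22 over all 14421 tested genes. It was larger for each of the proliferation genes with the smallest p given for AUG over all libraries. Alternatives were RLE scaling, other filters, unstranded counts, DESeq2 1.42.0, limma 3.58.1 voom with and without quality weights, robust dispersion, each mutant with its own wild type alone, all 8 wild types as control, a replicate block and each library left out. Full statistics were given for the 2 genes per role with the smallest p in each mutant, for the 2 with the smallest p in the difference, and for genes singled out after their values were seen, among them Ect2, Rrm1, Kif23 and Ccnb2. In the wider pathway list the 3 with the smallest p were named, and Zwilch, Orc6, Prim2, Chaf1b, Uhrf1, Kif14, Knl1, Pttg1, Mcm10 and Cks2 were described after their values were seen. The members, roles and lists were chosen with earlier results of these data known. Terc itself is not analysed here, and some single genes of the lists are not reported here.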

Additional observations from a re-analysis of the deposited data

Results flagged for a closer look

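A library was singled out where its gap to the nearest of its group, divided by the group's range, passed Dixon's 95% critical value for 4 samples. This held for 23 of 100 combinations of gene or sum and group. Chance gives about 1 in 20 for independent combinations chosen beforehand. The combinations share libraries and genes, so they are not independent. Some genes were chosen by small p in comparisons that hold AUG_WT replicate 1, itself singled out earlier. The 23 are thus no test against chance. In 19 of the 23 AUG_WT replicate 1 was the high library, which restates its high level. The gap over the range was 0.948 for E2f1, 0.967 for E2f2, 0.869 for Mcm2, 0.984 for Mcm3 and 0.972 for Mcm6. It was 0.995 for Ccna2, 0.909 for Ccnb1, 0.960 for Ccnb2, 0.934 for Cdk1, 0.950 for Bub1b and 0.965 for Cdc20. It was 0.926 for Mki67, 0.989 for Top2a, 0.955 for Kif23, 0.977 for Racgap1 and 0.895 for Stmn1. The summed levels gave 0.961 for replication genes, 0.972 for mitotic kinases and 0.969 for spindle genes.

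The other 4 were single genes in other groups, each with 1 high library. They are 4 of the 75 combinations outside AUG_WT, about the share that chance gives. AUG replicate 2 was high for Ccne2 (0.902) and for Mki67 (0.8291). Tyms was high in del7 replicate 3 (0.851), and Ccnb2 in del7_WT replicate 4 (0.886).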

How the results depend on the processing

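No proliferation gene was called in any comparison under any alternative run. In AUG against AUG_WT the median log2 fold change of the tested genes, -1.49, was -0.57 with all 8 wild types as control and 0.054 with voom and quality weights, where AUG_WT replicate 1 had a weight of 0.084 and the others 0.534 to 1.85. Leaving out each library gave -1.83 to 0.15, the top value without AUG_WT replicate 1, which reversed Racgap1 (-3.27 to 0.011), Mcm6 (-2.12 to 0.27) and Mcm3 (-1.50 to 0.032). Mcm6 also reversed with quality weights (0.20). For del7 the median ranged from -0.04 to 0.08. For the difference, -1.68, it was -0.90 with voom, 0.041 with quality weights and -2.07 to 0.15 on leaving out libraries. Calls over all genes were 9 by DESeq2 against 4 in AUG (3 to 5 on leaving out libraries), and 1 by DESeq2 and with all 8 wild types against 0 in del7. In the difference they were 6 by DESeq2, 2 by voom, 3 with quality weights and 2 with the replicate block against 1 (1 to 2 on leaving out libraries, 2 without AUG_WT replicate 1). Same-numbered libraries correlated at -0.16 to 0.35 in AUG and 0.09 to 0.28 in del7. In AUG 2 of 8 libraries correlated best with their own number, and in del7 6 of 8 did. The main fit did not take the numbers as pairs, so structure shared by number in del7 stays in its spread. With the replicate block, too, no proliferation gene was called. At an unadjusted p of 0.05, members numbered 5, 1 and 2 by DESeq2 in AUG, del7 and the difference, 0 in each by voom, and 0, 3 and 1 with quality weights. The share of all tested genes at that p was not computed for these tools. The counts therefore do not show whether the members differ from other genes. DESeq2 gave no adjusted p for 17 of the members. The low counts of mitotic genes outside AUG_WT replicate 1 limit what could be detected. Own wild type alone was not run for the difference, and all 8 wild types were not run for it or for single genes.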

Other observations

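Mki67 and Top2a did not keep 1 ratio across libraries. AUG_WT replicate 2 had 219 Mki67 reads to 27 Top2a reads, a ratio of 8.11 (95% exact interval 5.42 to 12.6, counting error only). It was the highest of the 16 libraries, and the interval does not allow for that choice. AUG_WT replicate 1 had a ratio of 2.19, and the other 14 libraries 1.47 to 4.35. The 4.35 belonged to AUG_WT replicate 3, whose interval of 2.65 to 7.47 overlaps that of AUG_WT replicate 2. Without Mki67, the summed level of the mitotic genes in AUG_WT replicate 2 was 18.5 CPM, and in the libraries other than AUG_WT replicate 1 it was 18.2 to 33.7 CPM. Summed B and plasma cell markers in AUG_WT replicate 2 were 333.8 CPM, the second highest, mostly Ighm at 318.8 CPM.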
